A study of Mus musculus with 43 samples.

Results

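The enzyme autotaxin, the 6 receptors for lysophosphatidic acid (LPA) and a pair of phosphatases that degrade LPA were followed through brown adipocyte cultures and inguinal white fat in which RUNX1 or RUNX2 had been added or removed. The 9 genes are Enpp2, Lpar1, Lpar2, Lpar3, Lpar4, Lpar5, Lpar6, Plpp1 and Plpp3. They were found by symbol among the 26264 genes of each of 6 count tables, and all 9 were listed in every table. The set was chosen by the Enpp2 values of the knockout cultures, which were lower in all 3 than in their control, so the values of those cultures are given as a description with no test.

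Polyadenylated RNA had been sequenced in 43 mouse libraries of 15 groups, with 3 libraries per group except for 2 in each group of the last table. The cultures were a line labelled BAT, taken as brown preadipocytes through differentiation to mature brown adipocytes. The first table held cultures that overexpressed Runx1 or Runx2, with cultures carrying the vector, labelled OEV and wild type, as their reference. The next held Runx1 knockout, Runx2 knockout and double knockout cultures and a wild-type knockout control. Another pair of tables held inguinal white adipose tissue (iWAT), from Adipoq-cre:Runx1 knockout and Runx1 flox mice in one and from Adipoq-cre:Runx2 knockout and Runx2 flox mice in the other. A further table held iWAT of Runx1 knockout and WT mice labelled HFD, an abbreviation that the labels do not expand and for which they name no Cre. The last held cultures with Runx2 lacking a stretch labelled IDR and cultures with full-length Runx2. Adipoq-cre is active in adipocytes, so the other cells of the tissue keep the floxed gene. The labels give no age, sex or clone, and they do not say that the libraries of a group came from separate animals or cultures, so a p-value here reflects the variation among those libraries, which may be technical.

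Autotaxin is a secreted lysophospholipase D, made in quantity by adipocytes, that releases LPA from lysophosphatidylcholine outside the cell. LPA signals through G protein-coupled receptors: Lpar1, Lpar2 and Lpar3 belong to the EDG family that also holds the sphingosine 1-phosphate receptors, and Lpar4, Lpar5 and Lpar6 are closer to purinergic receptors. The signal ends when membrane phosphatases with their active site facing outward, such as those encoded by Plpp1 and Plpp3, remove the phosphate.

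Levels are given in CPM, counts relative to the library total, scaled between the libraries of a table by the trimmed mean of M-values (TMM), and library totals ran from 28.1 to 52.2 M counts. Fold changes are log2 values with standard errors (SE), and a gene was called at an edgeR quasi-likelihood adjusted p below 0.05. Runx1 mRNA was 13.2-fold higher in the Runx1 overexpression cultures and Runx2 mRNA 35.2-fold higher in the Runx2 overexpression cultures than with vector. Each overexpression also came with more mRNA of the other factor. Runx1 was 5.42-fold higher with Runx2 overexpression (30.3 against 5.57 CPM, edgeR adjusted p = 2.28e-07). Runx2 was 1.91-fold higher with Runx1 overexpression (16.8 against 8.77 CPM, edgeR adjusted p = 3.13e-05). The part of the other factor in the values of these cultures was not tested. In the knockout cultures the targeted mRNA was not lower, with Runx1 at 5.43 ± 1.13 CPM in the Runx1 knockout against 5.24 ± 2.62 CPM in the control and Runx2 at 7.61 ± 0.956 CPM in the Runx2 knockout against 7.71 ± 1.28 CPM (SD, n = 3), and an mRNA count does not show whether a protein was lost. In iWAT the targeted mRNA was at log2 -0.62 (Runx1 knockout, edgeR adjusted p = 0.0779), -1.19 (Runx2 knockout, adjusted p = 0.254) and -0.30 (HFD Runx1 knockout, adjusted p = 0.955). Runx1 mRNA in Runx2 knockout iWAT was at log2 -1.28 without overlap with flox (edgeR adjusted p = 0.218). All 7 adipocyte markers were detected in every library, with summed levels of 3760 to 15900 CPM in cultures and 12300 to 40600 CPM in iWAT. Some libraries stood apart by transcripts of other tissues: the sum of 9 cardiac muscle genes was 1660 CPM in Runx1 overexpression replicate 3 and 109 and 434 CPM in vector replicates 1 and 2, against at most 4.94 CPM in the other libraries of that table. The sum of 7 skeletal muscle genes was 15300 and 7080 CPM in Runx1 knockout iWAT replicates 2 and 3, 6700 CPM in Runx1 flox replicate 2 and 6780 CPM in Runx2 flox replicate 3. In the GENCODE M21 annotation, exons of Enpp2, Lpar6 and Plpp1 share 345, 408 and 452 bases with Gm26684, Rb1 and Mtrex on the opposite strand, and since the counting is not stated to use strand, reads from those stretches cannot be told apart.

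Enpp2 had its highest mean in WT HFD iWAT. Within the cultures it was lowest in the double knockout and highest with Runx2 overexpression, where the mean exceeded those of Runx1 knockout and both Runx2 iWAT groups. Across the 15 groups the mean levels ran, from high to low, from WT HFD iWAT (619 ± 25.9 CPM) through HFD Runx1 knockout iWAT (528 ± 116), Runx1 flox iWAT (450 ± 53.6), Runx2 overexpression cultures (367 ± 16), Runx1 knockout iWAT (311 ± 51.9), Runx2 knockout iWAT (310 ± 29.4) and Runx2 flox iWAT (304 ± 24.6). Below these stood the knockout control cultures (174 ± 14.9 CPM), cultures with Runx2 lacking the IDR (156 ± 12.9), full-length Runx2 cultures (145 ± 0.253), both single knockouts (104 ± 3.79 and 104 ± 5.74), Runx1 overexpression (72.4 ± 12.1), vector (60.6 ± 2.47) and the double knockout (51 ± 2.84). Neighbouring groups of that order overlapped, except that gaps lay below Runx1 flox iWAT, below Runx2 flox iWAT, on either side of full-length Runx2, below the single knockouts and below vector. The vector and knockout control cultures, both labelled wild type, differed in level (60.6 against 174 CPM). Since each table was scaled on its own, this order across tables is not a test. Groups are compared only within a table below, except where another table is named.

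**Figure D1:**
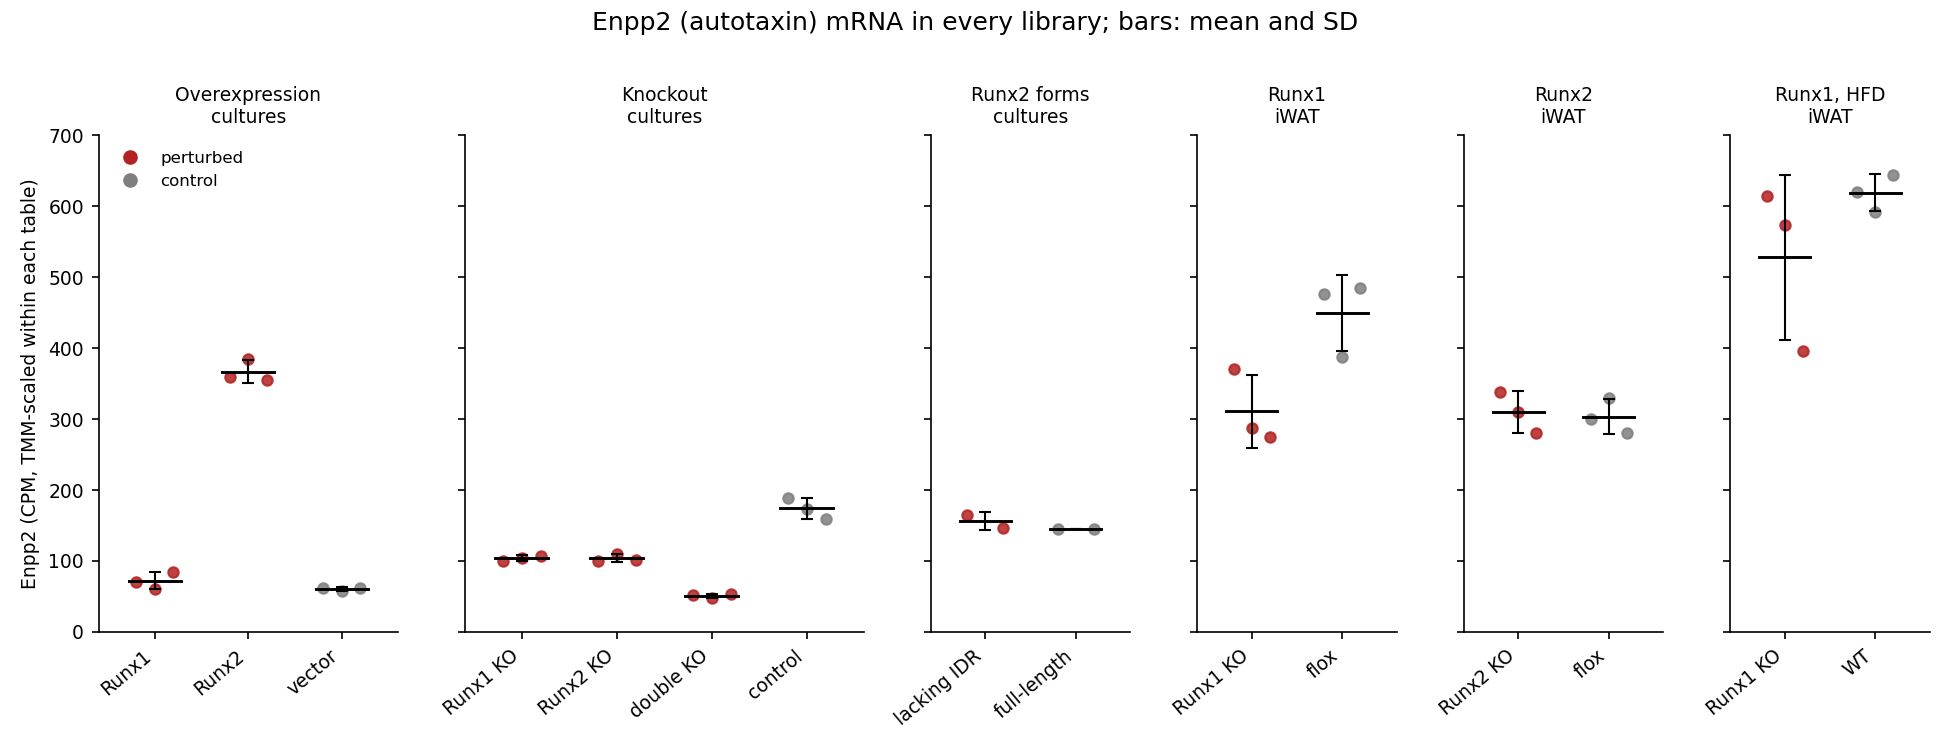
Enpp2 level (vertical axes, TMM-scaled CPM) in each library of the 15 groups, 1 panel per count table, with points for libraries and bars for the group mean and SD. Runx2 overexpression libraries sit between 355 and 385 CPM, above the Runx1 overexpression and vector libraries, and the double knockout libraries lie below all other libraries of their table.

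Enpp2 was several times higher with Runx2 overexpression than with vector, and with Runx1 overexpression it lay near the vector level. The Runx2 overexpression libraries had 360.1, 385 and 355 CPM and the Runx1 overexpression libraries 71.0, 61.0 and 85.2 CPM, against 62.1, 57.8 and 62.0 CPM with vector. No Runx2 library came near the vector range, while one of the Runx1 libraries lay within it. Enpp2 was 6.05-fold higher with Runx2 than with vector (log2 2.60, SE 0.12, edgeR adjusted p = 1.14e-08) and 5.07-fold higher than with Runx1 (log2 2.34, SE 0.12, adjusted p = 2.08e-07). With Runx1 the difference from vector was log2 0.26 (SE 0.11, edgeR adjusted p = 0.0766), so it did not pass the threshold. Without Runx1 overexpression replicate 2 it was 0.37 (adjusted p = 0.0154), and without the 3 libraries that carried cardiac transcripts Enpp2 was at 0.09 for Runx1 (adjusted p = 0.579) and 2.56 for Runx2 (adjusted p = 1.42e-08). That last fit keeps 1 vector library, replicate 3, which is assumed to vary as the libraries of the other groups do. The same cultures had far less Ucp1, the uncoupling protein of brown fat, with 0.32 to 0.64 CPM with Runx1 and 0.056 to 0.109 CPM with Runx2 against 41.2 to 63.2 CPM with vector. Summed levels of 7 stromal and preadipocyte genes, 4 of which lay above vector in every library of either factor and 1 below it in every Runx2 library, were 1920 to 2240 CPM with Runx1 and 5040 to 5540 CPM with Runx2, against 392 to 844 CPM with vector, where Dpp4 alone was at 0 in all libraries. Summed adipocyte markers were 6550 to 8050 CPM with Runx1 and 3760 to 4490 CPM with Runx2, against 7490 to 7790 CPM with vector. In bulk RNA, fewer cells of a type and less RNA per cell cannot be told apart, and the part of these shifts in the Enpp2 level was not tested.

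In the knockout cultures Enpp2 was lower in both single knockouts and lowest in the double knockout, which is the pattern that chose the set. The libraries had 100.2, 105 and 108 CPM in the Runx1 knockout, 99.6, 110.3 and 102 CPM in the Runx2 knockout and 51.6, 48.0 and 53.6 CPM in the double knockout, against 190, 173 and 160 CPM in the control. The single knockouts overlapped each other, and the double knockout overlapped none of the others. The descriptive log2 differences from the control were -0.74 (SE 0.10) for Runx1, -0.75 (SE 0.10) for Runx2 and -1.77 (SE 0.11) for both, with the same control libraries in all 3. The double knockout stood at log2 -1.03 against the Runx1 knockout and -1.02 against the Runx2 knockout. Double knockout replicate 1 stood apart in its summed adipocyte markers, 15900 CPM against 8090 and 7630 CPM in the other two, and without it Enpp2 was at log2 -1.77.

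In iWAT and with the shortened Runx2 no Enpp2 difference passed the threshold. The Runx1 knockout iWAT libraries had 371, 287 and 275 CPM, against 476, 388 and 485 CPM in Runx1 flox iWAT. Every knockout library was below every flox library, at log2 -0.53 (SE 0.17, edgeR adjusted p = 0.0748). That value passed with DESeq2 (-0.55, adjusted p = 0.0111) and without flox replicate 2 (-0.64, edgeR adjusted p = 0.0436), and was -0.38 (adjusted p = 0.713) without the 3 libraries that carried skeletal muscle transcripts, a fit of 1 knockout library against 2 flox libraries in which the spread comes from the flox pair alone. Runx2 knockout iWAT had 339, 311 and 280.1 CPM, against 300.2, 330 and 281 CPM in Runx2 flox iWAT. These groups overlapped, at log2 0.03 (edgeR adjusted p = 0.932). In HFD iWAT the Runx1 knockout had 615, 574 and 396 CPM, against 621, 593 and 644 CPM in WT. Replicate 3 of the knockout was the lowest, the other two overlapped WT, and the difference was log2 -0.23 (edgeR adjusted p = 0.954). Cultures with Runx2 lacking the IDR had 165 and 147 CPM, against 145.0 and 145.4 CPM with full-length Runx2, at log2 0.10 (SE 0.08, edgeR adjusted p = 0.605). Runx2 mRNA itself was at 129 ± 20.2 CPM in the IDR-lacking and 294 ± 0.888 CPM in the full-length cultures (SD, n = 2), so these differ in the amount of Runx2 transcript as well as in its IDR. Runx1 mRNA was lower there too, at 3.84 ± 0.651 against 8.21 ± 0.239 CPM (log2 -1.09, edgeR adjusted p = 0.000328).

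Among the genes whose levels followed Enpp2 most closely over all 43 libraries were Hexa, Gcnt1, Abca8a and Dact1. Likeness was the root mean square (RMS) difference of log2(CPM + 1) values, each centred on the gene's mean in its table, among 11235 genes with a mean of at least 5 CPM. The RMS differences were 0.376 for Hexa, 0.385 for Gcnt1, 0.389 for Abca8a and 0.392 for Dact1, beside a median of 0.707 over all genes compared and a spread of Enpp2 about its own table means of 0.647. Hexa, which encodes a subunit of the lysosomal enzyme hexosaminidase A, had 496, 419 and 432 CPM with Runx2 overexpression and 175, 175 and 123 CPM with Runx1, against 113, 116 and 99.7 CPM with vector. Abca8a, a gene for an ATP-binding cassette transporter, had 12.4, 16.8 and 16.6 CPM with Runx2 overexpression and 3.88, 2.78 and 7.96 CPM with Runx1, against 1.38, 1.71 and 1.35 CPM with vector. Both were highest with Runx2, as Enpp2 was, which the measure itself selects for. In the double knockout Hexa was at log2 -0.50 and Abca8a at -2.16, against -1.77 for Enpp2. In the Runx1 and Runx2 knockouts Hexa was at -0.118 and -0.157 and Abca8a at -0.469 and -0.431, against -0.74 and -0.75 for Enpp2. Gcnt1 did not fall there (0.042 and 0.006), and Dact1 was at -0.22 and -0.89. Gcnt1 and Dact1 stayed below 1 CPM in the knockout and control cultures, where the added 1 damps their differences. The points share libraries and depth, and the measure is a description.

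Lpar1 and Lpar2 moved in opposite directions when Runx1 was overexpressed, so their promoter windows are shown for the RUNX motif, TGTGGT, searched on both strands. The windows are the 250 bases before an annotated start, from RefSeq on the GRCm38.p6 build, 5′ to 3′ on the strand of the gene, and capitals mark the motif (ACCACA where it lies on the other strand). RefSeq windows were at hand for 7 of the 9 genes, 10 windows in all; Enpp2 and Plpp1 had none. The motif occurred in 1 of 3 windows of Lpar1, starting 189 bases before that start, in the window of Lpar2, 103 bases before its start, and in both windows of Lpar5. It was not in those of Lpar3, Lpar4, Lpar6 and Plpp3. Of 32851 windows of this length, 4614 (14.0%) held it. A match describes these letters only, and which Lpar1 start these cells use was not measured.
Lpar1, the most downstream of its 3 windows, chr4:58499404-58499653, minus strand: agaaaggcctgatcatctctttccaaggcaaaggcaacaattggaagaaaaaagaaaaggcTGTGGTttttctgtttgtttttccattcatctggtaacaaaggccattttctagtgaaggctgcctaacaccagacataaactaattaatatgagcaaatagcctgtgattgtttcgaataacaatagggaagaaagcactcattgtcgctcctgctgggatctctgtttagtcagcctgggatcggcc
Lpar2, chr8:69822315-69822564, plus strand: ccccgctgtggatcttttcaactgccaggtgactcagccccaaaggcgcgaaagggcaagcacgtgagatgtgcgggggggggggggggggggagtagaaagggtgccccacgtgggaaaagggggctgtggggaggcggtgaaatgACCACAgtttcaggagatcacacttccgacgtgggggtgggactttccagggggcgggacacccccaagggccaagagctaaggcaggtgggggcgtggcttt

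Lpar1, a widely expressed receptor that couples to several G protein families, was far higher with either factor than with vector. It had 22.6, 22.1 and 22.2 CPM with Runx1 overexpression and 31.0, 32.3 and 34.3 CPM with Runx2, against 2.90, 2.28 and 6.80 CPM with vector. All libraries of both factors were above all vector libraries, of which replicate 3 was the highest. Lpar1 rose 5.49-fold with Runx1 (log2 2.46, SE 0.31, edgeR adjusted p = 8.39e-05) and 8.01-fold with Runx2 (log2 3.00, SE 0.32, edgeR adjusted p = 1.32e-05). Vector replicate 3 also had the highest stromal sum among the vector libraries, 844 against 479 and 392 CPM. Without it the Lpar1 log2 fold changes were 3.09 and 3.66. With it as the only vector library left, after setting aside those with cardiac transcripts, they were 1.72 and 2.26. The spread then came from the other groups. The full-length Runx2 cultures, in another table that has no vector group, had 294 CPM of Runx2 mRNA and 0.97 ± 0.371 CPM of Lpar1 (SD, n = 2). In the Runx2 overexpression cultures Runx2 mRNA was at 309 CPM. The tables were scaled apart, and this difference in Lpar1 was not tested.

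Lpar2 fell with Runx1 and was at the vector level with Runx2. It had 2.94, 2.68 and 4.11 CPM with Runx1 overexpression and 7.25, 7.90 and 8.11 CPM with Runx2, against 8.50, 7.35 and 7.65 CPM with vector. The Runx1 libraries lay below all others of the table. The level was 2.41-fold lower with Runx1 than with vector (log2 -1.27, SE 0.19, edgeR adjusted p = 0.00019), while with Runx2 it was at log2 -0.01 (edgeR adjusted p = 0.951). The difference between the factors themselves passed the test (Runx2 over Runx1, log2 1.26, SE 0.19, edgeR adjusted p = 0.000419).

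**Figure D2:**
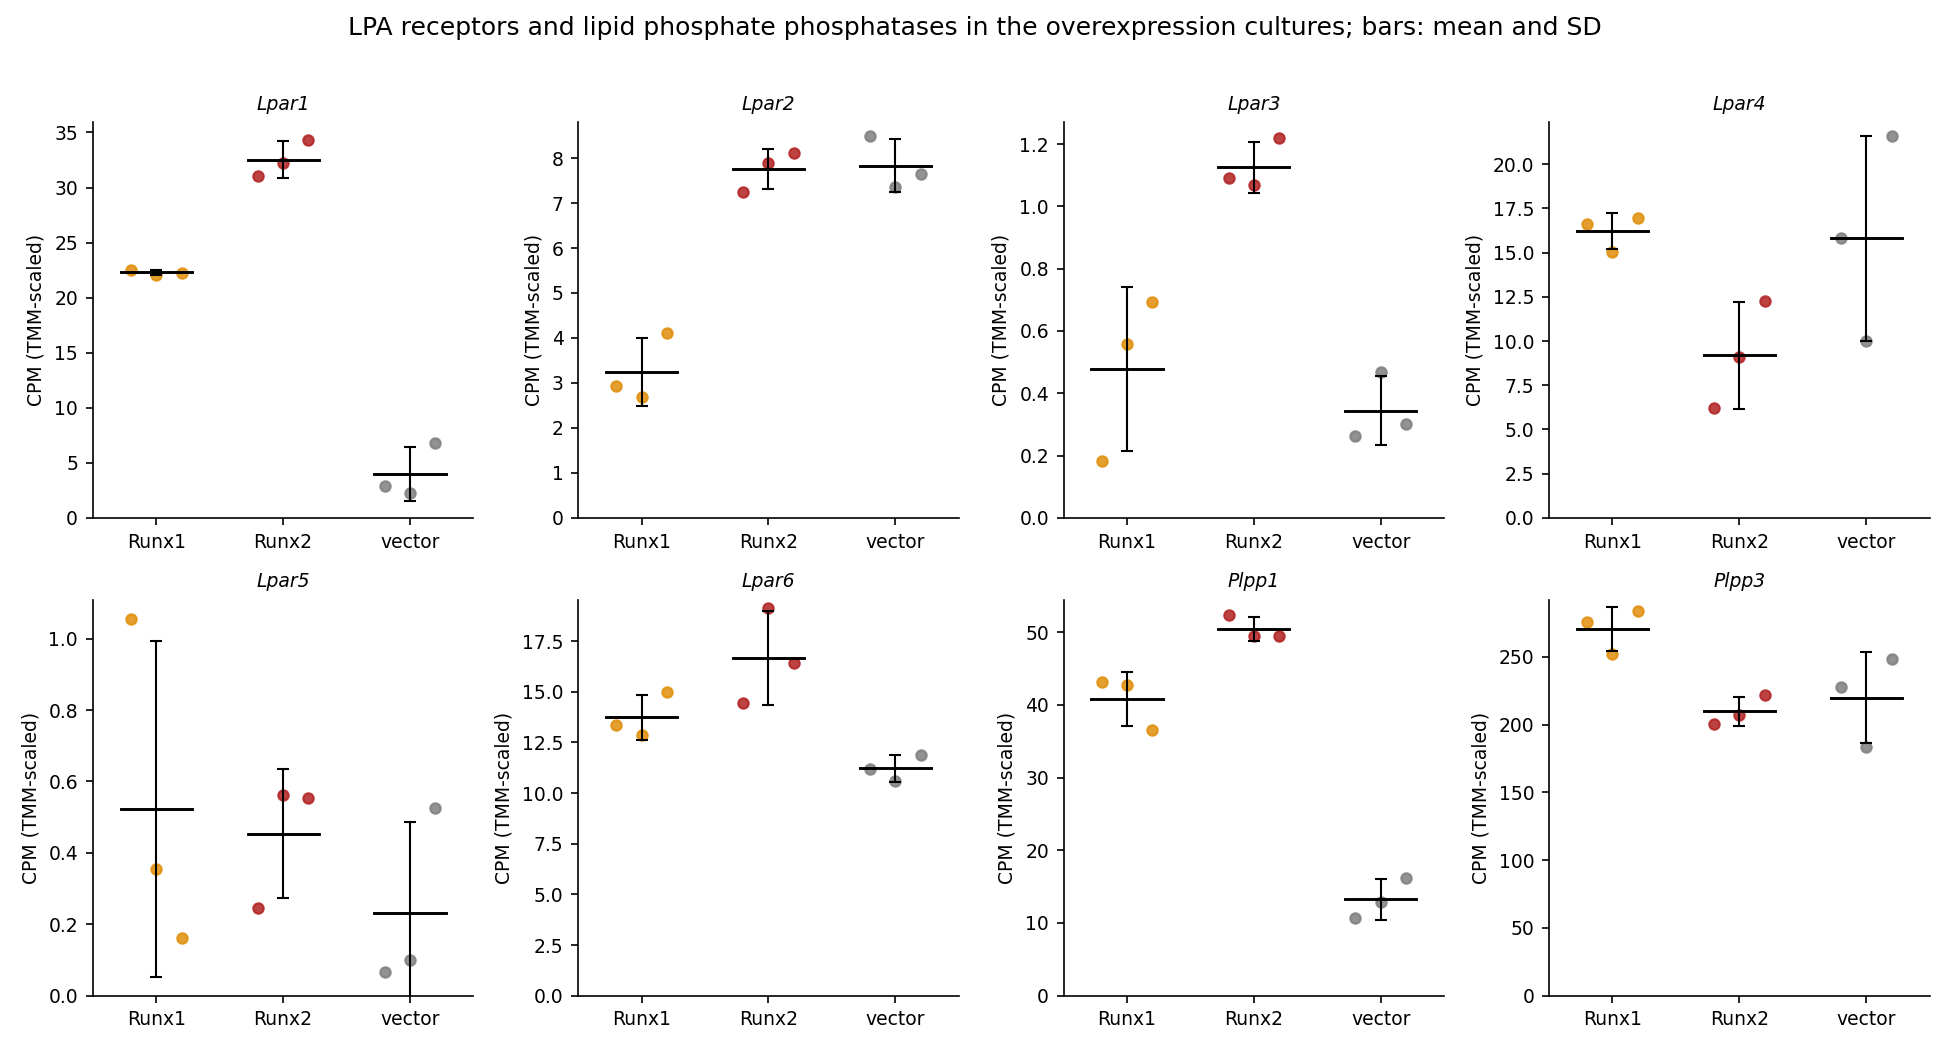
Levels (vertical axes, TMM-scaled CPM) of the 6 LPA receptors and of Plpp1 and Plpp3 in cultures overexpressing Runx1, overexpressing Runx2 or carrying vector, with a point per library and bars for mean and SD of 3 libraries. Lpar1 and Plpp1 were higher with both factors, and the 3 Runx1 libraries of Lpar2, at 2.68 to 4.11 CPM, lie below all other libraries.

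Of the remaining receptors, Lpar3 and Lpar6 were called higher with Runx2, where 31.3% of all genes were, and Lpar4 lower, where 29.6% were. With Runx1 0 of them were called, where 28.2% of all genes were called higher and 25.8% lower. Between the factors themselves Lpar3 (edgeR adjusted p = 0.0856) and Lpar6 (adjusted p = 0.112) were not called, whereas Lpar4 was. Lpar3 was scarce, with 0.184, 0.557 and 0.694 CPM with Runx1 and 1.09, 1.07 and 1.22 CPM with Runx2, against 0.264, 0.470 and 0.300 CPM with vector. All Runx2 libraries were above the others, and Lpar3 rose with Runx2 (log2 1.71, SE 0.55, edgeR adjusted p = 0.018), but the adjusted p was 0.0514 to 0.0692 without any 1 of vector replicates 1 and 3 or of the 3 Runx2 libraries. Lpar4, a receptor that raises cyclic AMP, had 6.21, 9.11 and 12.3 CPM with Runx2 and 16.6, 15.0 and 17.0 CPM with Runx1, against 15.8, 9.999 and 21.6 CPM with vector. The Runx2 and vector libraries overlapped. Lpar4 fell with Runx2 (log2 -0.78, SE 0.27, edgeR adjusted p = 0.0276), a call that was lost without vector replicate 1 or 3 or Runx2 replicate 1 or 2 (adjusted p = 0.0701, 0.153, 0.106 and 0.0794), and with Runx1 it was at 0.03 (edgeR adjusted p = 0.924). Lpar6 had 14.4, 19.1 and 16.4 CPM with Runx2 and 13.4, 12.9 and 15.0 CPM with Runx1, against 11.2, 10.6 and 11.9 CPM with vector. It rose with Runx2 (log2 0.57, SE 0.13, edgeR adjusted p = 0.00285), and with Runx1 it was at 0.29 (edgeR adjusted p = 0.083), although no library of either factor fell into the vector range. Lpar5 stayed at 1.06 CPM or less in all 9 libraries and was not called in either comparison (edgeR adjusted p = 0.291 and 0.374).

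Of the phosphatases, Plpp1 was higher with both factors and Plpp3 differed little. Plpp1 had 43.2, 42.7 and 36.6 CPM with Runx1 overexpression and 52.4, 49.5 and 49.5 CPM with Runx2, against 10.6, 12.9 and 16.1 CPM with vector. All libraries of both factors stood well above all vector libraries. It rose 3.08-fold with Runx1 (log2 1.62, SE 0.14, edgeR adjusted p = 3.69e-06) and 3.81-fold with Runx2 (log2 1.93, SE 0.14, edgeR adjusted p = 5.05e-07). In the full-length Runx2 cultures of the other table Plpp1 was at 7.16 ± 0.409 CPM (SD, n = 2), which was not tested against these. Plpp3 had 276, 252 and 284 CPM with Runx1 and 201, 207 and 222 CPM with Runx2, against 228, 184 and 249 CPM with vector. The Runx1 libraries lay above the vector libraries by a small step and the Runx2 libraries among them. Plpp3 was called higher with Runx1 (log2 0.30, SE 0.11, edgeR adjusted p = 0.0393) and not with Runx2 (-0.07, adjusted p = 0.615). The Runx1 call was lost without vector replicate 1 or 2 or Runx1 replicate 1 or 3 (adjusted p = 0.0722, 0.138, 0.113 and 0.0705), with no count filter (0.28, adjusted p = 0.0638) or with the compared groups fitted alone (adjusted p = 0.0641), and without the libraries with cardiac transcripts, against vector replicate 3 alone, the vector library highest in Plpp3, it was at 0.09 (adjusted p = 0.564).

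Over the 9 genes, which all passed the count filter of this table, Runx1 overexpression gave 3 called higher, where 28.2% of the 14661 genes tested were called higher, and 1 called lower, where 25.8% were. Runx2 overexpression gave 5 called higher beside 31.3% of all genes and 1 called lower beside 29.6%. The median log2 fold change of the 9 was 0.30 with Runx1 and 0.93 with Runx2, beside 0.06 and 0.03 over all genes tested. Between the factors, 2 of the 9 were called higher with Runx2 than with Runx1 (18.9% of all genes) and 2 lower (21.0%). Those higher were Enpp2 and Lpar2. Those lower were Lpar4 (log2 -0.81, SE 0.27, edgeR adjusted p = 0.0344) and Plpp3 (log2 -0.37, SE 0.11, edgeR adjusted p = 0.0216). The Plpp3 call was lost without Runx1 replicate 1 (adjusted p = 0.08) or Runx2 replicate 1 or 2 (0.0652 and 0.0775), and the Lpar4 call was lost without 1 library in 5 of the 6 cases and with no count filter (adjusted p = 0.0612). Lpar1 was at 0.55 between the factors (edgeR adjusted p = 0.153), and with only these groups fitted at 0.57 (adjusted p = 0.00171).

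**Figure D3:**
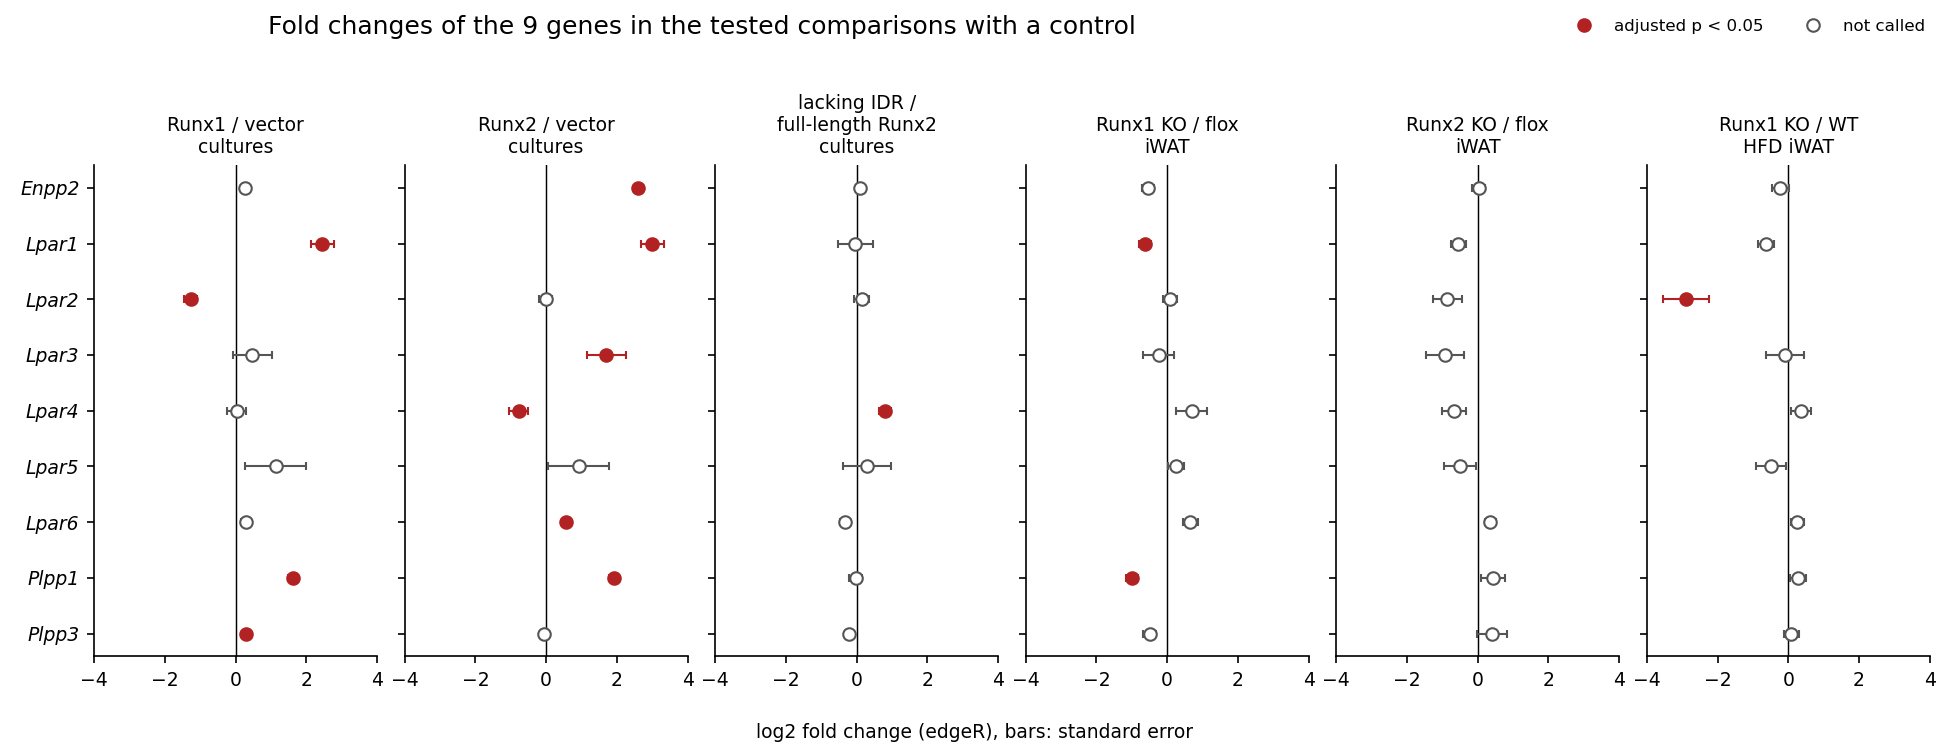
Log2 fold change with its SE (horizontal axes) of the 9 genes in the 6 comparisons with a control outside the knockout cultures, with filled red points for an edgeR adjusted p below 0.05 and open points otherwise. Filled points are frequent in the overexpression panels, 4 for Runx1 and 6 for Runx2, and number 0 to 2 in each of the others.

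In the knockout cultures, described without a test, the receptors shifted most in the double knockout. Lpar4 had 30.2, 20.2 and 19.3 CPM in the double knockout and 8.99 to 11.1 and 9.30 to 10.3 CPM in the Runx1 and Runx2 knockouts, against 8.11, 8.97 and 8.34 CPM in the control. All knockout libraries were above all control libraries, by a small margin in the single knockouts, and double knockout replicate 1 was the highest. The log2 differences were 1.45, 0.28 and 0.20, and 1.23 for the double knockout without that replicate. Plpp1 had 14.5, 13.9 and 12.4 CPM in the double knockout, against 7.25, 7.76 and 7.47 CPM in the control (log2 0.86), Lpar1 had 3.04, 2.86 and 3.04 CPM against 1.29, 0.602 and 1.33 CPM (log2 1.47), and Lpar2 had 2.44, 3.93 and 5.83 CPM against 7.76, 7.64 and 8.01 CPM (log2 -0.93). Lpar4, Plpp1 and Lpar1 thus stood above the control in every double knockout library and Lpar2 below it. Plpp3 was at log2 0.60, and Lpar3, Lpar5 and Lpar6 overlapped the control, with Lpar5 at 0 counts in double knockout replicate 1, where 3 counts are 0.0936 CPM. Counted by non-overlap with the control, 4 genes lay above and 2 below in the Runx1 knockout (10.5% and 12.4% of 13551 genes), 2 above and 1 below in the Runx2 knockout (8.87% and 9.99%), and 4 above and 2 below in the double knockout (15.3% each way). Enpp2, whose values chose the set, is among those below in each and is the 1 below in the Runx2 knockout, so nothing is read from these counts. These 3 comparisons share their control libraries. The sum of the 7 stromal genes was 630 to 1250 CPM in the double knockout against 371 to 587 CPM in the control. Of the 7, 1 lay above the control in every double knockout library and 0 below it, and Dpp4 was at 0 throughout both groups. The sum was 731 to 855 CPM in the Runx1 knockout and 537 to 571 CPM in the Runx2 knockout. Mean Ucp1 was 95.1 CPM in the double knockout, 50.6 and 48.2 CPM in the Runx1 and Runx2 knockouts and 17.6 CPM in the control. The part of these shifts in the values above was not tested.

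In iWAT with Runx1 deleted in adipocytes, Plpp1 and Lpar1 were lower. Plpp1 had 39.0, 28.2 and 33.6 CPM in Runx1 knockout iWAT, against 53.8, 78.0 and 68.3 CPM in Runx1 flox iWAT. All knockout libraries were below all flox libraries, at a level 1.99-fold lower (log2 -0.99, SE 0.17, edgeR adjusted p = 0.0117). Lpar1 had 19.8, 18.3 and 21.0 CPM in the knockout, against 33.1, 24.4 and 33.9 CPM with flox. These groups did not overlap either, and Lpar1 was called lower (log2 -0.63, SE 0.16, edgeR adjusted p = 0.0445). The Lpar1 call was lost without any 1 library other than flox replicate 2 (edgeR adjusted p = 0.0955 to 0.21). The Plpp1 call was lost without knockout replicate 2 (-0.88, edgeR adjusted p = 0.0732). Leaving out the 3 libraries with skeletal muscle transcripts leaves 1 knockout library against 2 flox libraries. In that fit Plpp1 was at -0.65 and Lpar1 at -0.76, and neither call held. Lpar6 had 108, 79.6 and 63.2 CPM in the knockout, against 63.6, 54.4 and 42.3 CPM with flox, and the lowest knockout library fell just inside the flox range. It was at log2 0.65 (edgeR adjusted p = 0.092), which passed with DESeq2 (adjusted p = 0.0302) and, with 1 knockout library left against 2 flox libraries, without the libraries with skeletal muscle transcripts (1.04, adjusted p = 0.00941). Plpp3 was at -0.49 (adjusted p = 0.136), and Lpar2, Lpar3, Lpar4 and Lpar5 had edgeR adjusted p-values of 0.353 to 0.812. Of the 9 genes, 0 were called higher (4.45% of 15896 genes) and 2 lower (3.03%). In the same libraries the sum of 5 endothelial markers was 496 to 732 CPM in the knockout against 786 to 1040 CPM with flox, with 2 of the 5 lower in every knockout library, and that of 6 brown adipocyte markers 211 to 326 CPM against 140 to 187 CPM, with 4 higher and 1 lower. Their part in the Plpp1 and Lpar1 differences was not tested.

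In iWAT with Runx2 deleted in adipocytes, 0 of the 9 genes and 0 (0%) of all genes, 15574 tested, were called by edgeR in either direction. An unadjusted p below 0.05 was found for 3206 genes and for 1 of the 9, Lpar1, and DESeq2 called 950 genes and 0 of the 9. Lpar1 had 21.0, 18.0 and 17.5 CPM in Runx2 knockout iWAT, against 32.5, 28.2 and 21.5 CPM in Runx2 flox iWAT. The groups did not overlap, at log2 -0.54 (SE 0.20, edgeR adjusted p = 0.221). Lpar6 had 37.1, 44.1 and 41.3 CPM in the knockout, against 32.8, 34.6 and 28.5 CPM with flox, also without overlap, at 0.35 (adjusted p = 0.246). Lpar4 had 3.40, 3.79 and 3.25 CPM in the knockout, against 4.40, 3.91 and 8.39 CPM with flox, at -0.68 (adjusted p = 0.29). Flox replicate 3 stood apart from the other flox libraries in Lpar2 (4.09 against 10.04 and 11.0 CPM), Lpar4 and Plpp3 (167 against 53.2 and 75.6 CPM), as well as in its skeletal muscle transcripts. Without it 6354 genes and 4 of the 9 were called: Lpar1 at -0.69 (edgeR adjusted p = 0.00847), Lpar2 at -1.18 (adjusted p = 0.00802), Plpp1 at 0.82 (adjusted p = 0.0232) and Plpp3 at 1.03 (adjusted p = 0.00691). The sum of the 4 T cell markers was 227 to 273 CPM in the knockout against 351 to 829 CPM with flox, with all 4 lower in every knockout library. The sum of 7 adipocyte markers was 32000 to 40300 CPM against 12300 to 31900 CPM, with 3 higher in every knockout library, and that of 6 brown adipocyte markers 336 to 962 CPM against 67.8 to 167 CPM, with 4 higher. Their part in these values was not tested.

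In HFD iWAT, Lpar2 was the 1 gene of the 9 called between Runx1 knockout and WT. It had 0.520, 0.231 and 0.472 CPM in the knockout, against 0.845, 4.30 and 4.03 CPM in WT. The groups did not overlap, but WT replicate 1 lay close to the knockout. The level was 7.4-fold lower (log2 -2.89, SE 0.65, edgeR adjusted p = 0.0401), and the authors' deposited table lists Lpar2 at -2.89 with an adjusted p of 0.000302. By edgeR the call was lost without any 1 library other than WT replicate 1 (adjusted p = 0.103 to 0.185). Among all genes, 0.0465% of 15058 genes were called higher and 2.07% lower, and of the 9 genes 0 were higher and 1 lower. Lpar1 had 10.4, 11.7 and 11.98 CPM in the knockout, against 18.3, 18.3 and 16.2 CPM in WT, without overlap, at log2 -0.63 (SE 0.22, edgeR adjusted p = 0.322). For the other 7 genes the adjusted p was at least 0.894.

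Lpar2 is known to be expressed in lymphocytes, so lymphocyte genes were read beside it. In HFD iWAT the summed level of 5 B cell markers was 2.15, 2.98 and 3.33 CPM in the Runx1 knockout, against 161, 353 and 276 CPM in WT, with all 5 markers lower in every knockout library. The 4 T cell markers summed to 3.06 to 15.8 CPM in the knockout, against 65.3 to 160 CPM in WT, again with all 4 lower. In Runx2 knockout iWAT the B cell sum was 405, 498 and 224 CPM, against 1550, 1530 and 263 CPM with flox, where the low library is replicate 3, and Lpar2 was 4.87, 5.82 and 3.17 CPM, against 10.04, 11.0 and 4.09 CPM. In Runx1 knockout iWAT the B cell sum was 1260 to 1590 CPM, against 1290 to 1670 CPM with flox, and Lpar2 was 11.8, 13.1 and 13.8 CPM, against 13.3, 9.70 and 13.4 CPM (log2 0.09, edgeR adjusted p = 0.812). In the Runx2 table the library lowest in B cell markers, knockout replicate 3, was also the lowest in Lpar2. In the HFD table the knockout libraries were lowest in both, but replicate 1 among them had the lowest B cell sum and the highest Lpar2. In the Runx1 table knockout replicate 3 had the lowest B cell sum, 1260 CPM, and the highest Lpar2, 13.8 CPM. The part of B and T cell transcripts in the Lpar2 difference was not tested. In the cultures the B cell sum was at most 0.419 CPM, while Lpar2 was at 2.44 to 8.50 CPM in every culture library.

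**Figure D4:**
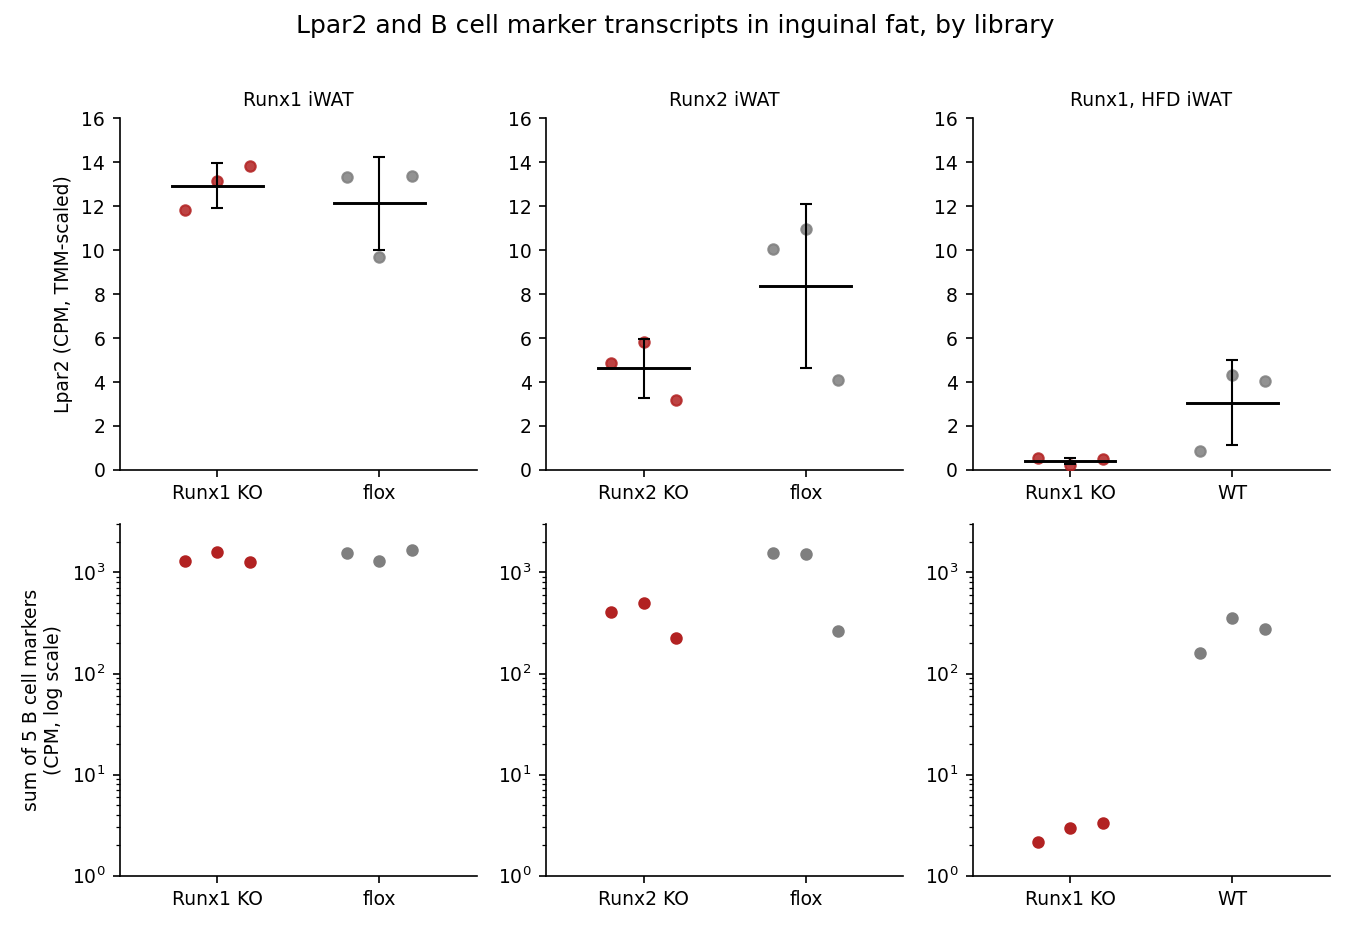
Lpar2 level and summed level of 5 B cell markers (vertical axes, TMM-scaled CPM, the sum on a log axis) in each library of the 3 iWAT tables, with knockout left of its reference. HFD Runx1 knockout libraries are lowest in both panels, at 0.231 to 0.520 CPM for Lpar2 and 2.15 to 3.33 CPM for the markers.

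The knockout effect differed between the iWAT tables for a pair of genes. Fitting Runx1 knockout, Runx1 flox, HFD Runx1 knockout and HFD WT libraries together, the HFD effect minus the other was log2 -2.99 for Lpar2 (SE 0.65, edgeR adjusted p = 0.0186) and 1.24 for Plpp1 (SE 0.31, edgeR adjusted p = 0.0324). Of the 9 genes these were the 1 called higher (1.10% of 16361 genes) and the 1 called lower (3.30%), and for Enpp2 the difference was 0.29 (adjusted p = 0.644). Plpp1 had 57.3, 52.5 and 39.0 CPM in the HFD knockout, against 47.4, 31.4 and 44.7 CPM in WT, so it overlapped there while it was lower in the other table. Lpar2 had an adjusted p of 0.0513 without flox replicate 2, 0.0516 without iWAT knockout replicate 2 and 0.0518 without HFD WT replicate 2, and Plpp1 had 0.0587 to 0.0953 without flox replicate 2 or 3, iWAT knockout replicate 2 or 3, HFD WT replicate 2 or HFD knockout replicate 1. The table and the condition labelled HFD cannot be told apart here.

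In the cultures with shortened Runx2, Lpar4 was higher. It had 10.7 and 8.79 CPM with Runx2 lacking the IDR, against 5.93 and 5.25 CPM with full-length Runx2, without overlap (1.74-fold, log2 0.80, SE 0.18, edgeR adjusted p = 0.00437). The authors' deposited table lists Lpar4 at 0.80 with an adjusted p of 0.0182. The call was lost without full-length replicate 2 (0.71, edgeR adjusted p = 0.0641) or IDR-lacking replicate 1 (0.65, adjusted p = 0.112). Lpar6 had 11.6 and 12.7 CPM with the IDR missing, against 15.8 and 14.8 CPM (log2 -0.33, adjusted p = 0.216), and Plpp3 157 and 165 CPM, against 178 and 194 CPM (log2 -0.21, adjusted p = 0.139); neither pair of groups overlapped and neither passed. Lpar3, with at most 0.120 CPM, did not pass the count filter, and of the 8 genes tested 1 was called higher (1.51% of 13110 genes) and 0 lower (2.40%). The other tested genes had adjusted p-values of 0.605 to 0.991.

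To compare receptors with each other, CPM were divided by exon length (GENCODE M21), and each receptor was expressed as a share of the summed CPM per kb of all 6. Vector cultures were led by Lpar4 (43.7 ± 5.78%), Lpar6 (25.7%) and Lpar2 (16.7%), with Lpar1 at 10.5 ± 3.76% (SD, n = 3). Lpar1 led with both factors, at 41.1 ± 1.66% with Runx1 and 51.0 ± 3.21% with Runx2, and Lpar4 held 30.2% and 14.3%. The summed level was 12.7 ± 0.573 CPM per kb with Runx1 and 14.9 ± 1.53 with Runx2, against 8.37 ± 2.17 with vector. In the double knockout cultures Lpar4 held 62.9 ± 5.92%, against 36.8% in the control, and the summed level was 8.63 ± 1.41 CPM per kb in the double knockout, against 5.44 ± 0.31 in the control. Lpar6 led in every iWAT group except Runx2 flox, where Lpar1 did. It held 51.1% in Runx1 knockout against 39.0% in Runx1 flox, 46.2% in Runx2 knockout against 31.4% in Runx2 flox, and 64.4% in HFD Runx1 knockout against 54.6% in HFD WT. Lpar1 held 15.5% against 27.9%, 27.0% against 33.3% and 10.8% against 17.0% in the same pairs. Lpar5, scarce in the cultures, held 7.16% to 21.4% in iWAT. These shares are descriptions on a length from a build other than that of the counts, and a share can change because another receptor did.

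**Figure D5:**
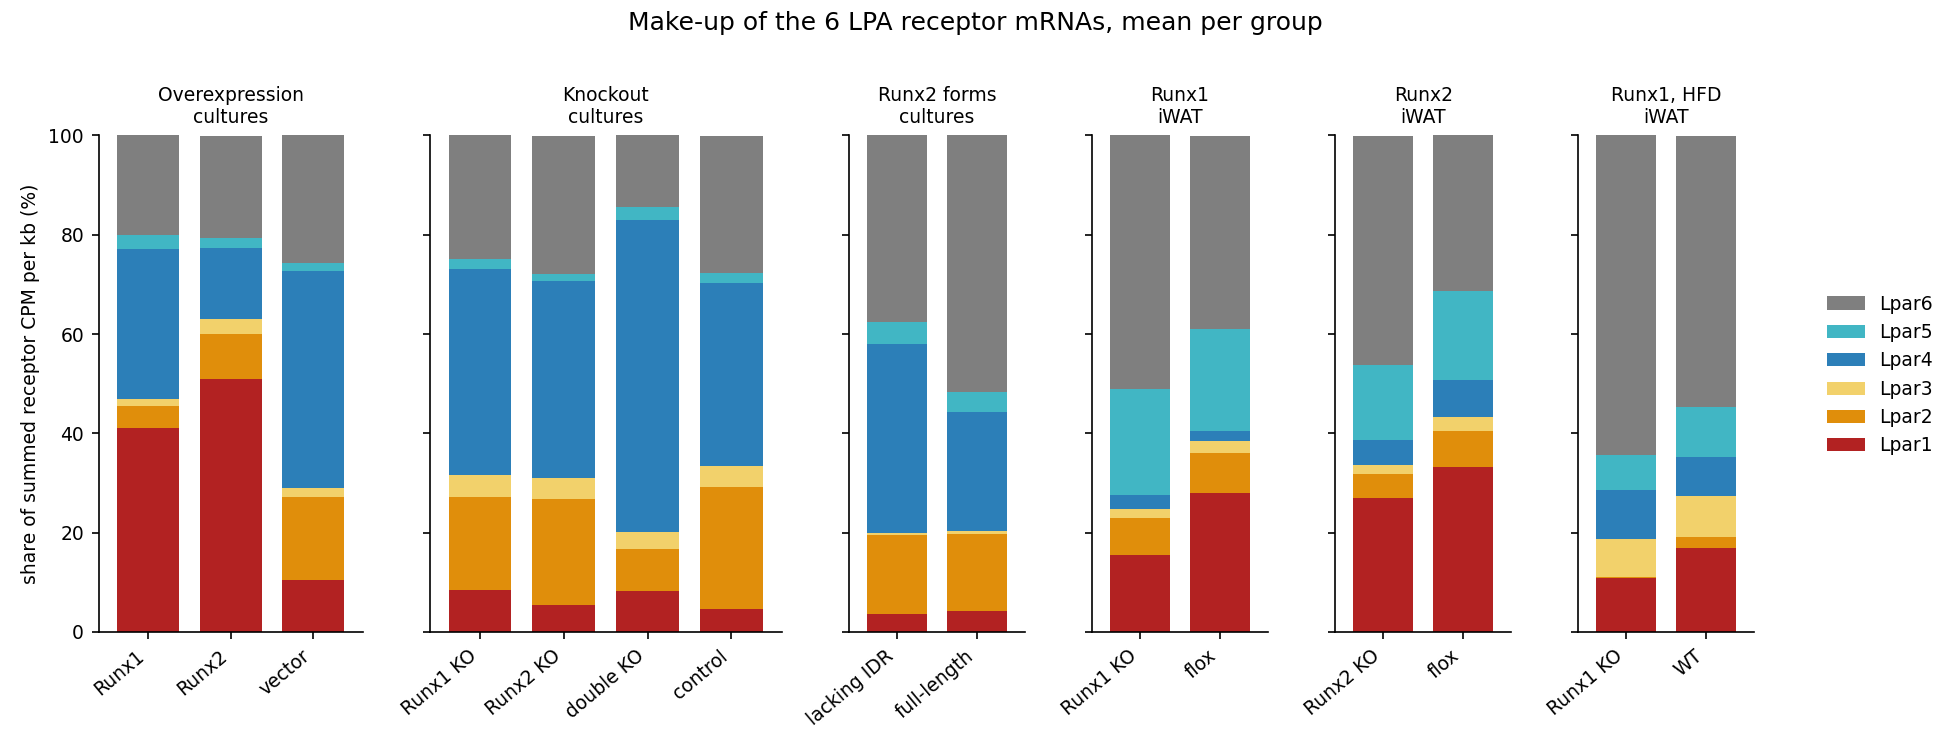
Mean share (vertical axis, percent) of each LPA receptor in the summed CPM per kb of the 6 receptors, as stacked bars for the 15 groups. Lpar1 takes the largest part with Runx1 or Runx2 overexpression (41.1% and 51.0%), Lpar4 in the double knockout (62.9%) and Lpar6 in HFD iWAT (64.4% in the knockout and 54.6% in WT).

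Other genes of LPA metabolism and response were read from 4 lists, chosen with earlier results of these data known. Of 14 tested SRF and YAP target genes, a group that LPA is known to induce, 13 were called higher with Runx1 overexpression (28.2% of all genes) and 14 with Runx2 (31.3%), with 0 called lower; their median log2 fold change was 2.33 and 3.92 beside 0.06 and 0.03 over all genes. Myl9, a myosin light chain, was at 79.1 CPM with Runx1 and 95 CPM with Runx2 against 2.35 CPM with vector (log2 5.06 and 5.33), and Cnn2, a calponin, at 514 and 498 CPM against 22.9 CPM (log2 4.48 and 4.44). The matricellular genes Ccn1 (log2 3.20, 1800 against 196 CPM) and Ccn2 (log2 2.28, 616 against 127 CPM) were higher with Runx2 than with Runx1 (edgeR adjusted p = 1.66e-05 and 8.39e-05). Markers of stromal cells were higher in the same cultures, and their part in these genes was not tested.

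Of 5 tested related lysophospholipid receptors, 3 were called higher with Runx1 (28.2% of all genes) and 4 with Runx2 (31.3%), where 1 was lower (29.6%). S1pr1 was at 9.72 CPM with Runx1 and 17.1 CPM with Runx2 against 2.27 CPM with vector (log2 2.08 and 2.90), and S1pr2 at 17 and 24.4 CPM against 4.13 CPM (log2 2.03 and 2.55). Of 14 tested genes listed under LPA supply, 4 were higher and 4 lower with Runx1, shares near those of all genes (28.2% and 25.8%). With Runx2, 5 were higher and 6 lower (31.3% and 29.6% of all genes). The list holds relatives of autotaxin by name, such as Enpp1 and Enpp3, and being listed does not show that a gene makes LPA. Pla1a, a phospholipase A1 that can make lysophospholipids, rose to 12.3 CPM with Runx1 and 16.3 CPM with Runx2 against 1.62 CPM with vector (log2 2.92 and 3.31), while Gpam, a mitochondrial glycerol-3-phosphate acyltransferase, fell (246 and 328 against 580 CPM). Enpp1, a nucleotide pyrophosphatase related to autotaxin in sequence, was at 42 CPM with Runx2 against 6.76 CPM with Runx1 (log2 2.63, SE 0.15, edgeR adjusted p = 6.39e-07). Of 13 tested genes listed under LPA removal, 3 were higher and 6 lower with Runx1, and 3 and 9 with Runx2, beside the same shares of all genes. Here too, being listed does not show that a gene acts on LPA. The median log2 fold change of the 13 was -0.05 with Runx1 and -0.53 with Runx2, beside 0.06 and 0.03 over all genes. Acp6, a mitochondrial LPA phosphatase, fell (6.98 and 6.4 against 25.9 CPM, log2 -1.89 and -2.02), as did Plpp6 (40.5 and 21.8 against 67.9 CPM, log2 -0.75 and -1.64).

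The lists moved little in the other comparisons. In Runx1 knockout iWAT, Gpam was higher (285 against 117 CPM, log2 1.28, edgeR adjusted p = 0.00707) as was Agpat1, an enzyme that turns LPA into phosphatidic acid (109 against 60.9 CPM, log2 0.84, adjusted p = 0.00512), and Ccn2 was lower (11.4 against 26.9 CPM, log2 -1.24, adjusted p = 0.00957). In HFD iWAT 3 of 8 related receptors were lower in the Runx1 knockout, where 2.07% of all genes were. They included P2ry10 (1.74 against 18.7 CPM, log2 -3.41) and Gpr174 (1.05 against 10.9 CPM, log2 -3.38), receptors for lysophosphatidylserine found in lymphocytes, both with an edgeR adjusted p of 0.00143 and beside the lower B and T cell markers given above. P2ry10 was also the 1 of 7 related receptors called lower in Runx1 knockout iWAT, where 3.03% of all genes were. There it had 53.3 against 84.9 CPM with flox (log2 -0.67, edgeR adjusted p = 0.044), while the B and T cell sums overlapped flox. In Runx2 knockout iWAT 0 genes of the 4 lists were called by edgeR. With Runx2 lacking the IDR, Agpat2 was called higher (395 against 305 CPM, log2 0.38, edgeR adjusted p = 0.00164) and Enpp3 lower (2.72 against 4.96 CPM, log2 -0.86, adjusted p = 0.0288).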

How the data were processed

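The submitters' processing notes name fastp, STAR and featureCounts with the mm39 build and give no versions or options. The 6 deposited tables hold raw counts, with genes named by symbol and a column for each library. The deposited lists of changed genes hold, per the file headers, log2 fold changes and adjusted p-values of the authors' own comparisons, in columns named as in a DESeq2 table; 10 per-sample columns of those lists were not used.

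Each table was fitted with all its groups in edgeR 4.0.16 under R 4.3.3 (filterByExpr, TMM factors, robust quasi-likelihood F test). P-values were adjusted by Benjamini and Hochberg's method across every gene that passed the filter, with calls at an adjusted p below 0.05. The procedure was tested on simulated counts. The 9 genes, the 4 pathway lists and the marker lists were chosen with earlier results of these data known. Besides the 9 genes, the text names Runx1, Runx2, Ucp1, at most 2 called genes of each list in each direction with the lowest adjusted p, and genes among the 5 most like Enpp2; some results under this rule are not reported here. Fold changes in the knockout cultures carry no test. SE is the log2 fold change over the square root of F.

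Alternatives were DESeq2 1.42.0 as test or as scaling, the replicate number as a block, no filter on low counts, the compared groups alone, and each library left out. Fits without libraries carrying cardiac or skeletal muscle transcripts, and all alternatives for the difference between HFD and other iWAT, were chosen after seeing the data. Same-numbered libraries deviated together in every pair only for the double knockout against its control (correlations 0.328, 0.352 and 0.125); there the block gave Enpp2 at log2 -1.77.

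Most low counts (1 to 19) were even, 71.1 to 81.9% per library, as when each read of a pair is counted singly. Exon lengths (GENCODE M21, GRCm38) and promoter windows (RefSeq, GRCm38.p6) are of another build than the counts. Figures used Python 3.11.15 and matplotlib 3.10.9.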

Additional observations from a re-analysis of the deposited data

Results flagged for a closer look

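The Runx1 knockout effect differed between HFD iWAT and the other iWAT for Lpar2, by log2 -2.99, and for Plpp1, by log2 1.24, both in a test of the difference itself (edgeR adjusted p = 0.0186 and 0.0324). Leaving out 1 library ended the Lpar2 call in 3 cases (adjusted p = 0.0513 to 0.0518) and the Plpp1 call in 6 (0.0587 to 0.0953). The summed B cell markers were 2.15 to 3.33 CPM in the HFD Runx1 knockout against 161 to 353 CPM in HFD WT, and 1260 to 1590 CPM in Runx1 knockout iWAT against 1290 to 1670 CPM in Runx1 flox iWAT. Their part in the Lpar2 difference was not tested.

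Other pairs had values of opposite sign in tissue and culture with no overlap between knockout and control in either, and the difference between tissue and culture was not tested. Lpar1 was at log2 -0.628 in Runx1 knockout iWAT and -0.631 in HFD Runx1 knockout iWAT, and at 0.994 in the Runx1 knockout cultures. Plpp1 was at -0.989 in Runx1 knockout iWAT and 0.173 (SE 0.142) in the cultures, where the lowest knockout library (7.765 CPM) barely cleared the highest control library (7.763 CPM). Lpar4 was at -0.675 in Runx2 knockout iWAT and 0.198 in the Runx2 knockout cultures; the iWAT value did not pass the test (edgeR adjusted p = 0.29) and was -0.249 without flox replicate 3. The cultures had 1.70 to 2.77 CPM of Lpar1 in the Runx1 knockout against 0.602 to 1.33 CPM in the control, far below the level in iWAT.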

How the results depend on the processing

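Of 1105 values of the 9 genes under alternatives, 970 kept their direction and their side of the threshold or, in the knockout cultures where no test was made, moved by less than 1 SD between libraries, 53 were no longer past it, 15 newly passed it, 67 moved further without a test or changed sign without a call, and 0 called values changed sign. DESeq2 put Enpp2 in Runx1 knockout iWAT at -0.55 and called 4 of the 9 genes there, and without the libraries with skeletal muscle transcripts (1 knockout against 2 flox libraries) 1 was called. With the replicate number as a block, 0 of the 9 were called in HFD iWAT (Lpar2 -2.66, adjusted p = 0.209) and 0 in the difference between HFD and other iWAT (Lpar2 -2.76, Plpp1 1.24, adjusted p = 0.103 and 0.113). In Runx1 knockout iWAT the block ended the Lpar1 call (-0.61, adjusted p = 0.0614) and added Lpar6 (0.63, adjusted p = 0.033). Each library left out in turn gave Enpp2 at 0.12 to 0.37 for Runx1 overexpression, -0.68 to -0.45 in Runx1 knockout iWAT and -0.0354 to 0.10 in Runx2 knockout iWAT. The genes of the 9 called ranged from 2 to 4 between the overexpressed factors, 0 to 3 in Runx1 knockout iWAT, 0 to 4 in Runx2 knockout iWAT, 0 to 1 in HFD iWAT, 0 to 1 for the IDR and 0 to 2 for the difference between iWAT effects.

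The count of all genes called also moved: for Runx1 knockout iWAT 1189, with DESeq2 2249, with the block 744 and 99 to 1381 without 1 library; for HFD iWAT 318, 554, 206 and 120 to 394; for the difference 720, 1384, 261 and 308 to 833; for the IDR 512 and 242 to 1214 without 1 library. Depth limits Lpar3 and Lpar5 in the cultures and Lpar2 in HFD knockout iWAT, all near or below 1 CPM.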
